A study of Mus musculus with 1 sample.

Results

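Among alveolar macrophages (AMs, resident macrophages of the lung airspaces), the cells described here carried transcripts of lung epithelial genes. A cell was taken as a carrying cell if it held a value above 0 for at least 1 of 5 genes, Sftpc, Scgb1a1, Sftpa1, Sftpb and Sftpd. This held for 259 of 2055 cells, a share of 12.6% (exact binomial 95% interval 11.2 to 14.1%). The members were chosen by these 5 genes, so the levels and shares of these genes are given as a description throughout. The 5 genes were left out of the depth totals, the gene ratios and the gene lists in which carrying cells are set against matched cells. The cells were sorted as CD45+CD11c+SiglecF+ from the lung of 1 adult Hdac3fl/fl mouse without Cre and profiled with the 10x Genomics 3' v2 assay. The design named Csf1rCre-HDAC3fl/fl mice, whereas the paper gives Cd11cCre for the conditional knockout (cKO) of its single-cell data. The mouse analysed here was wild-type in the sample label, FVB/NJ backcrossed to C57BL/6, with age given as 8 to 12 weeks. The animal carried both floxed Hdac3 alleles and stood for the WT state, and a cKO library was not analysed here. With 1 mouse and 1 library there was no replicate, no test between animals and no p-value, and all intervals cover counting error only.

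The alveolar surface is kept open by surfactant, a film of lipids and proteins that alveolar type 2 cells secrete. AMs take up and break down spent surfactant, particles, microbes and dying cells, using scavenger receptors, Fc receptors and receptors for apoptotic cells. Sftpc, Sftpa1, Sftpb and Sftpd encode surfactant proteins C, A, B and D, and Scgb1a1 encodes the secretoglobin of airway club cells, all secreted by epithelium.

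The library held 7222978 UMIs (unique molecular identifiers, each standing for 1 captured transcript) over 11918 genes, with 1143 to 8603 UMIs per cell and a median of 3278. Carrying cells had the macrophage identity of the sort. Lyz2 and Chil3, which encode lysozyme and a chitinase-like protein abundant in AMs, were found in 259 of 259 carrying cells, and Ptprc, which encodes CD45, in 213. Itgax, which encodes CD11c, was found in 168 carrying cells and Siglecf, the receptor used in the sort, in 118. Over the 27 AM identity genes in the table, including Marco, the summed level in carrying cells was 0.992 times (0.983 to 1.00) that of depth-matched cells. Of the 60166 UMIs of the list in carrying cells, Lyz2 had 18174, Chil3 14663 and Cd9 6963. The sum thus says little of the sparser genes. Of the 26 genes with at least 200 UMIs in both groups together, 15 were above and 11 below 1.

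The carried signal was small in each cell. The 5 genes accounted for 362 UMIs, 0.00501% of the library. Sftpc, the surfactant protein gene particular to type 2 cells (GRCm38 chr14:70520949-70524081, minus strand), had 172 UMIs in 141 cells and at most 4 in a cell. Scgb1a1 (chr19:9083636-9087958, minus strand) had 148 UMIs in 113 cells and at most 5. These transcripts made up most of the carried signal, at 47.5% and 40.9% of the UMIs of the 5 genes. Sftpa1 (chr14:41131782-41136452, plus strand) had 29 UMIs in 29 cells, Sftpb (chr6:72304610-72314371, plus strand) 8 UMIs in 8 cells and Sftpd (chr14:41172214-41185149, minus strand) 5 UMIs in 5 cells. No cell held more than 1 UMI of Sftpa1, Sftpb or Sftpd. Of the 98-base sequences near the 3' ends of these 5 genes and of Marco, 0% occurred in transcripts of another gene.

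Most carrying cells sat just inside the rule. A single UMI placed 188 cells in the group, 52 cells held 2 UMIs, 11 held 3, 5 held 4, 1 held 5 and 2 held 6, while the 1796 other cells held 0. Of the carrying cells, 32 held at least 2 of the 5 genes and 4 held at least 3. By gene, 146 cells held surfactant protein transcripts only, 94 held Scgb1a1 only, and 19 held both kinds.

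Most carrying cells held 1 of the 5 genes alone, as did 112 of the 141 cells with Sftpc and 14 of the 29 with Sftpa1. Where genes met, Sftpc and Sftpa1, which type 2 cells make together, were found together in 13 cells, where the product of the 2 shares, summed over bins of depth, gave 2.44 cells. Sftpa1 and Sftpb shared 3 cells, against 0.146 from the product. Surfactant protein genes, pooled, and Scgb1a1 were found together in 19 cells against 10.6 from the product. Sftpc alone, the gene particular to type 2 cells, and Scgb1a1 were found together in 16 cells against 9.10 from the product. These counts rest on the genes of the rule and on cells of 1 library, and are a description with no test.

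A cell with more UMIs had more chances to pass the rule. Carrying cells had a median of 3932 UMIs, against 3185.5 in all other cells. Across 5 bins of 411 cells ordered by total UMIs, the share of carrying cells was 7.54, 7.54, 11.7, 14.8 and 21.4%. The rate of the 5 genes showed no such order, at 0.684, 0.340, 0.460, 0.543 and 0.511 UMIs per 10000 UMIs. With every cell thinned to 1500 UMIs, the expected share of carrying cells was 6.14%, in place of 12.6%. No cell type that should lack these genes was sorted beside the AMs, so a background share in other cells could not be given, and free RNA in the droplets was not tested.

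**Figure D1:**
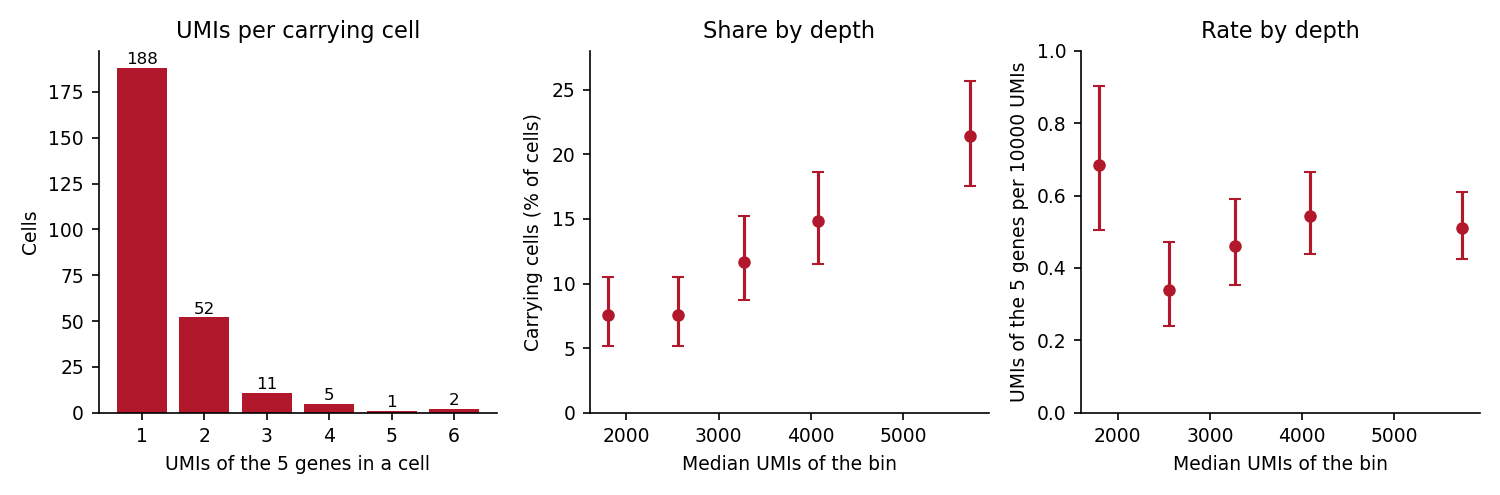
Left, number of carrying cells (y axis) by UMIs of the 5 epithelial genes in the cell (x axis), with 188 cells at 1 UMI and 2 cells at 6. Middle and right, share of carrying cells and UMIs of the 5 genes per 10000 UMIs in 5 bins of 411 cells placed at their median total UMIs, with exact 95% intervals; the share was 7.54% in the bin of lowest depth and 21.4% in the bin of highest depth, while the rate stayed between 0.340 and 0.684.

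Carrying cells were therefore set against other cells of similar depth. Each carrying cell was matched with the 4 unused other cells nearest in total UMIs, which gave 1036 matched cells with a median of 3936 UMIs. The mean was 4106 UMIs in carrying and 4043 in matched cells, so carrying cells stayed slightly deeper. With 1 matched cell per carrying cell, the mean of matched cells was 4104. The median number of genes was 1642 in carrying and 1629 in matched cells. Mitochondrial genes took a median of 3.34% of UMIs in carrying and 3.17% in matched cells, and 20.8% of carrying and 16.2% of matched cells were over 5%. The level of a gene was its summed UMIs per 10000 UMIs of the group, and the ratio of the 2 levels was given with its exact 95% interval. Of 3425 genes with at least 200 UMIs in both groups together, 10 were at least 1.5-fold higher in carrying cells (0.292%) and 11 were at least 1.5-fold lower (0.321%). In 1 simulated draw, 3 of 3251 unchanged genes passed the higher threshold and 14 the lower. The simulated cells shared 1 profile without variation between cells, so the draw cannot tell whether either count is an excess. The median log2 ratio over the tested genes was 0.0033, and the middle 95% of ratios lay between 0.768 and 1.32.

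**Figure D2:**
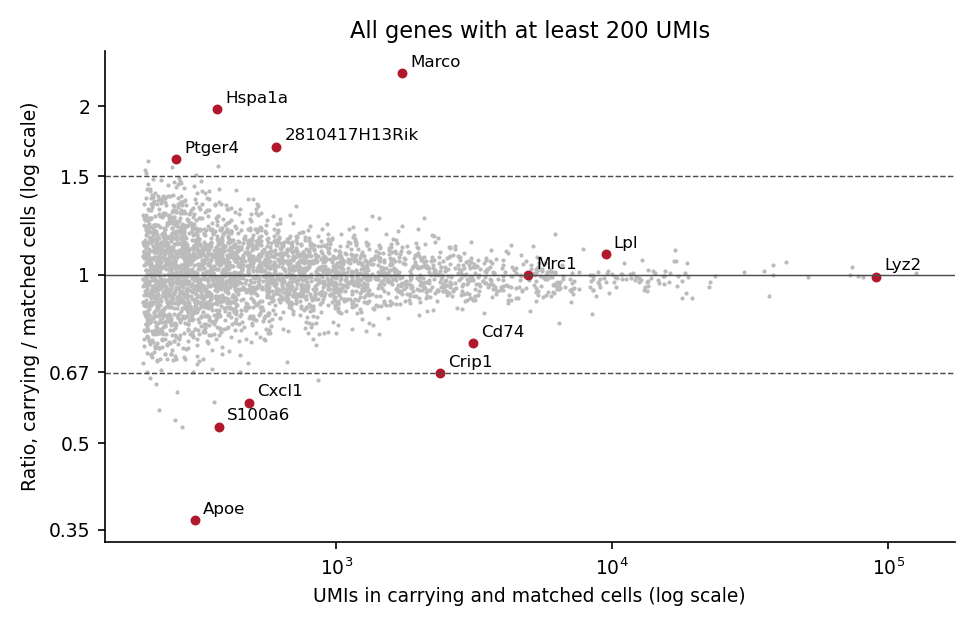
Ratio of each gene's level in the 259 carrying cells to that in the 1036 matched cells (y axis, log scale) against its UMIs in both (x axis, log scale), 1 point for each of 3425 genes, with named genes in red and dashed lines at 1.5-fold. Marco, at 2.29, has the highest ratio and Apoe, at 0.364, the lowest, while abundant AM genes such as Lyz2 lie close to 1.

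Marco, a class A scavenger receptor by which AMs bind particles, bacteria and modified lipoproteins (chr1:120474538-120505024, minus strand), had the highest ratio of the tested genes. Carrying cells held 638 Marco UMIs and matched cells 1096, which is 6.00 and 2.62 per 10000 UMIs and a ratio of 2.29 (2.08 to 2.53). Marco was found in 187 of 259 carrying cells (72.2%, 66.3 to 77.6%) and in 481 of 1036 matched cells (46.4%, 43.4 to 49.5%). With cells thinned to 1500 UMIs the expected shares were 50.3% and 26.6%. The median was 2 Marco UMIs per carrying cell, the 90th percentile 6 and the highest 15, against a median of 0, a 90th percentile of 3 and a highest of 11 in matched cells. The groups overlapped, since 72 carrying cells held no Marco UMI and 88 matched cells held 4 or more, as did 62 carrying cells.

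The Marco difference was present at every depth. In the 5 bins of total UMIs, from the lowest to the highest, the ratio of carrying cells to all other cells of the bin was 2.86, 2.76, 2.58, 2.09 and 2.02. Other cells held between 2.49 and 3.07 Marco UMIs per 10000 in these bins, while carrying cells held between 5.57 and 8.78, with no overlap between the 2 ranges. With cells over 5% mitochondrial UMIs left out, the ratio of Marco in carrying to matched cells was 2.20 (1.97 to 2.46).

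It was also present for each kind of carried transcript. Marco stood at 6.05 UMIs per 10000 (5.45 to 6.71) in cells with surfactant protein transcripts only, at 5.74 (5.01 to 6.55) in cells with Scgb1a1 only and at 6.89 (5.16 to 9.01) in the 19 cells with both. The 3 intervals overlap, and none of them reaches the 2.70 (2.58 to 2.84) of all other cells. By number of carried UMIs, Marco stood at 5.19 per 10000 in cells with 1, at 9.43 in cells with 2 and at 4.78 (3.38 to 6.56) in the 19 cells with 3 or more. Marco was thus not ordered by the number of carried UMIs beyond 2.

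Read in the other direction, carrying cells became more frequent with Marco. They made up 6.60% of the 1091 cells with no Marco UMI, 11.1% of the 422 cells with 1, 22.2% of the 352 cells with 2 to 3, 28.5% of the 158 cells with 4 to 7 and 53.1% (34.7 to 70.9%) of the 32 cells with 8 or more. Cells with more Marco UMIs were also deeper, with a median of 2972 total UMIs in the first class and 5621 in the last. Thinned to 1500 UMIs, the expected shares kept this order, at 3.17, 5.22, 11.1, 13.5 and 22.4%. Sftpc was found in 3.67% of cells with no Marco UMI and in 31.2% of those with 8 or more, and Scgb1a1 in 2.47% and 21.9%. The class with 8 or more rests on 10 cells with Sftpc and 7 with Scgb1a1. Per 10000 UMIs, Sftpc rose with each class, from 0.132 to 0.694. Scgb1a1 stood at 0.0886 with no Marco UMI, at 0.353 with 2 to 3, at 0.349 with 4 to 7 and at 0.579 with 8 or more. Both transcripts were thus higher with more Marco, but in strict order for Sftpc only.

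**Figure D3:**
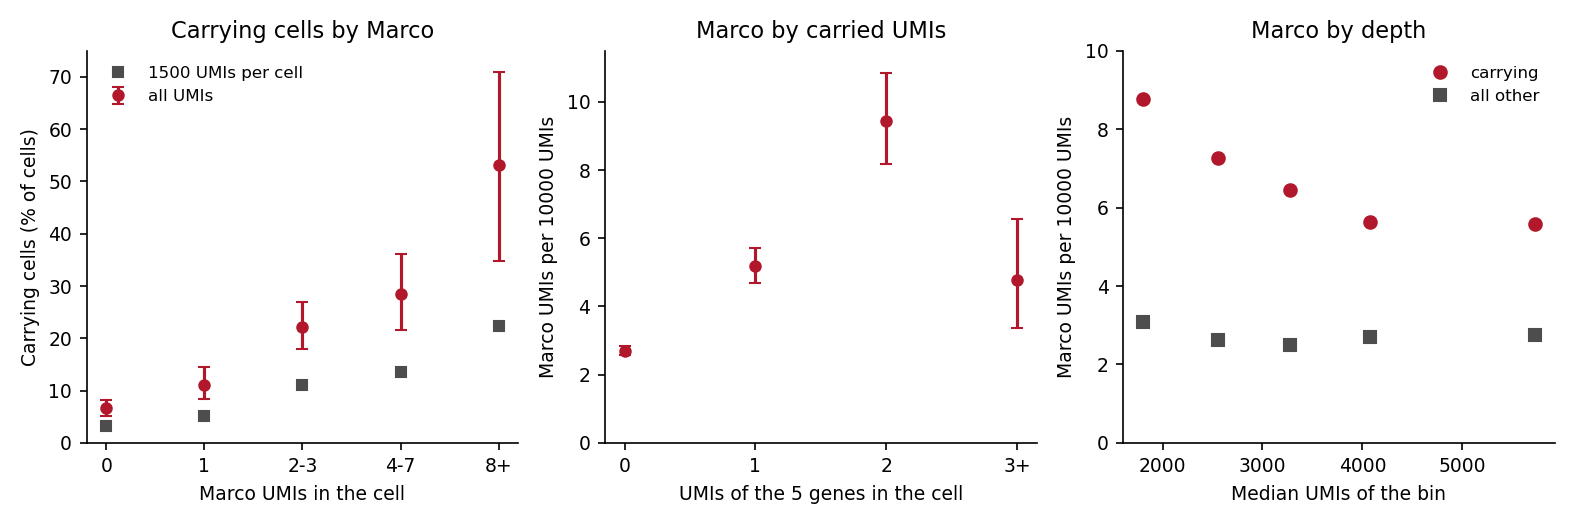
Left, share of carrying cells by Marco UMIs in the cell, for all UMIs with exact 95% intervals (circles) and the value after thinning to 1500 UMIs per cell (squares), from 6.60% at no Marco UMI to 53.1% at 8 or more. Middle, Marco UMIs per 10000 UMIs by UMIs of the 5 genes in the cell, with exact 95% intervals, from 2.70 at 0 to 9.43 at 2 and 4.78 at 3 or more. Right, Marco UMIs per 10000 UMIs in carrying cells (circles) and all other cells (squares) of 5 bins placed at their median total UMIs, where the circles lie above the squares in each bin.

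Other receptors for uptake showed no such difference. Of the 18 scavenger and efferocytosis receptor genes above the minimum, 9 had a ratio above 1 and 9 below 1, and Marco alone was past 1.5-fold. The 29 genes of the list in the table stood at 1.04 in sum (1.01 to 1.06), and at 0.988 (0.963 to 1.01) without Marco, a calculation added after the values were seen. Mrc1, the mannose receptor, stood at 0.999 with 1004 UMIs in carrying and 3958 in matched cells. Cd36, a scavenger receptor for lipids, stood at 1.01, and Axl and Mertk, the receptor kinases by which macrophages bind apoptotic cells, at 1.01 in each case. Trem2, a lipid receptor, stood at 1.20 with 64 and 210 UMIs, and Itgb5, an integrin subunit, was the lowest of the list at 0.761 with 34 and 176. Itgb5 lay just below the middle 95% of all genes, which ran from 0.768 to 1.32, and Mrc1, Cd36, Axl, Mertk and Trem2 lay within it.

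Genes of Fc receptors and of the machinery downstream of receptors stood close to 1. The 15 genes of Fc receptor uptake stood at 0.948 (0.918 to 0.978) in sum. Fcer1g, the Fc receptor gamma chain, had 3522 of the 4786 UMIs in carrying and 14952 of the 19897 in matched cells. The sum thus says little of the other genes. Of the 9 above the minimum, 3 were above and 6 below 1. They ranged from Syk, the kinase downstream of Fc receptors, at 0.834 to Lyn, a Src family kinase, at 1.22. Fcer1g stood at 0.928, and the receptors Fcgr3, Fcgr4 and Fcgr2b at 0.854, 0.914 and 1.08. The 41 engulfment and phagosome genes in the table stood at 0.985 (0.966 to 1.01) in sum, and of the 30 above the minimum 13 were above and 17 below 1, with 0 past a lower threshold of 0.32 on the log2 scale in either direction, where 4.99% of all genes were past it in the higher and 4.55% in the lower direction. Rac1 and Cdc42, the GTPases that drive the phagocytic cup, stood at 1.00 and 1.01, and Cyba, a subunit of the phagocyte oxidase, at 0.990. The 11 bridging molecules and opsonins stood at 0.953 (0.926 to 0.981) in sum, with Lgals3, a galectin, at 0.941.

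Digestive genes were close to 1 as well. The 36 lysosomal genes stood at 0.988 (0.972 to 1.00) in sum, and of the 30 above the minimum 16 were above and 14 below 1. Ctsd, a lysosomal aspartic protease, stood at 1.00 with 2348 UMIs in carrying and 9208 in matched cells, and Ctss, a cysteine protease that also trims the invariant chain, at 0.910 with 3652 and 15814. The extremes of the list were Cd63, a lysosomal membrane tetraspanin, at 0.813 and Neu1, a sialidase, at 1.24. Genes of RNA degradation and endosomal RNA sensing stood at 1.02 (0.958 to 1.09). Among them, Tlr7, a receptor for single-stranded RNA, stood at 1.09 with 52 and 188 UMIs, Pld3, an endolysosomal exonuclease, at 1.12 with 385 and 1352, while Dnase2a, which digests DNA in lysosomes, had 66 and 325.

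Genes by which AMs handle surfactant lipid stood slightly above 1 in sum, at 1.03 (1.01 to 1.06). Of the 17 tested, 10 were above and 7 below 1. None of the 17 was past the lower threshold of 0.32 (log2), against 4.99% of all genes in the higher and 4.55% in the lower direction. With 17 genes, a count of 0 cannot be told apart from these shares. Lpl, a lipoprotein lipase and among the most abundant of the list, stood at 1.09 with 2049 UMIs in carrying and 7404 in matched cells, and Fabp1, a fatty acid binding protein, at 1.11 with 1724 and 6102. Pparg, the nuclear receptor that sets AM identity and lipid handling, stood at 1.15 with 139 and 475 UMIs. Abcg1, the cholesterol exporter, stood at 1.02 (0.957 to 1.09). Of the 7 below 1, Soat1 was the lowest at 0.903, followed by Ltc4s at 0.923.

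**Figure D4:**
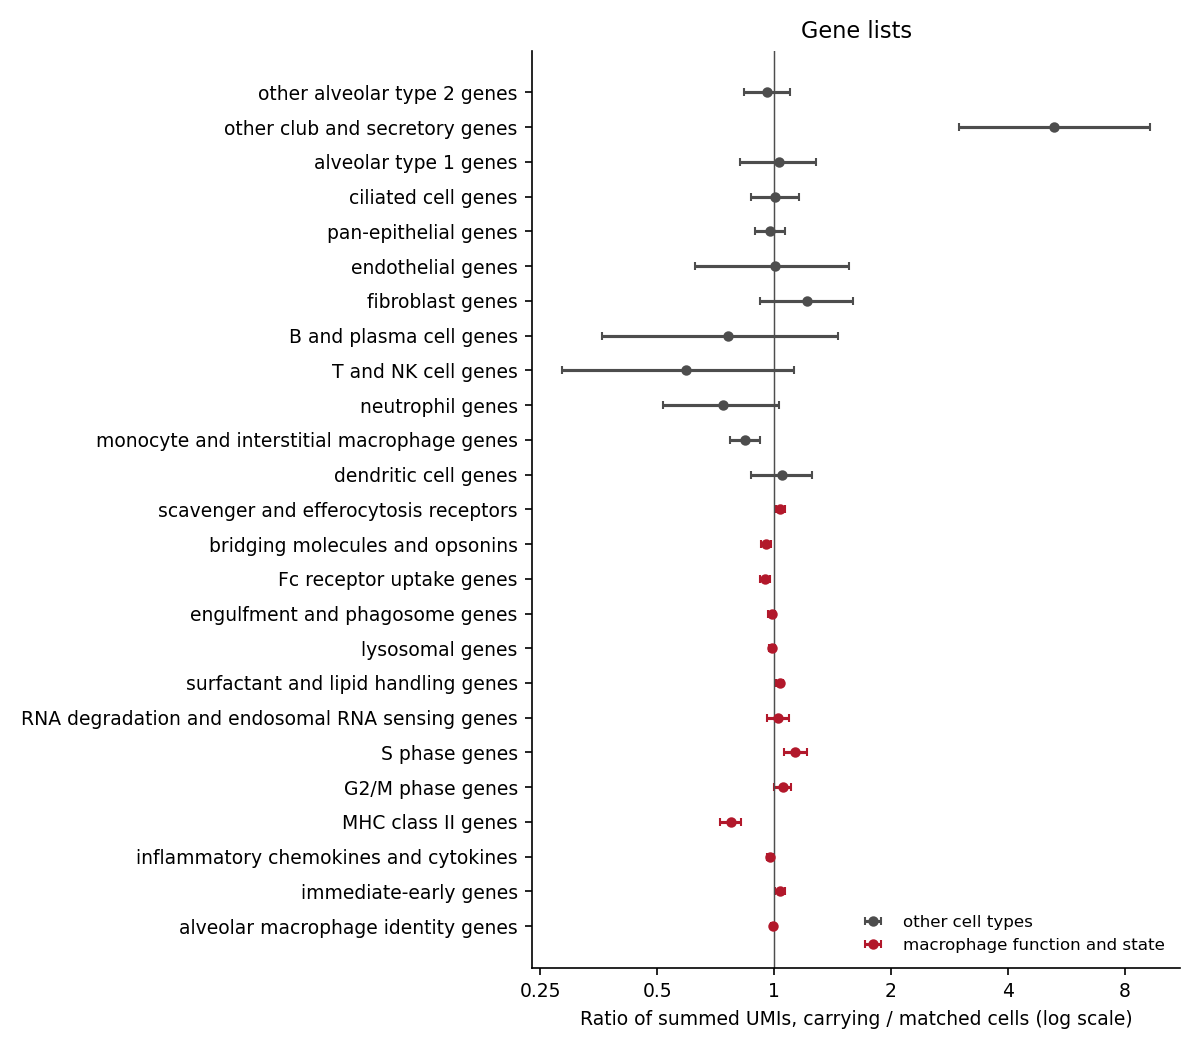
Ratio of summed UMIs per 10000 in carrying to matched cells (x axis, log scale) for each gene list with UMIs, with exact 95% intervals that cover counting error only; lists of other cell types are grey, and lists of macrophage function and state are red. Other club and secretory genes lie at 5.25, MHC class II genes at 0.774, and the receptor, engulfment, lysosomal and lipid lists between 0.948 and 1.04.

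Cell cycle genes gave no single direction. S phase genes stood at 1.13 (1.06 to 1.21) in sum over 42 genes, but of the 6 above the minimum 3 were above and 3 below 1. Rrm2, a subunit of ribonucleotide reductase, led them at 1.39 with 56 UMIs in carrying and 159 in matched cells, followed by Pcna, the DNA polymerase clamp, at 1.14. G2/M genes stood at 1.05 (1.00 to 1.11) over 52 genes, with 9 of 12 tested genes above 1, among them Ube2c at 1.20 and Top2a at 1.19, which act in anaphase and in untangling DNA. A gene outside these lists, 2810417H13Rik, which encodes a PCNA-associated factor, stood at 1.69 (1.42 to 2.02) and was found in 15.1% of carrying and 10.4% of matched cells. These levels rest on few cells: cells in the top 5% for S phase genes made up 9.27% (6.03 to 13.5%) of carrying and 5.31% (4.02 to 6.85%) of matched cells. For G2/M genes the shares were 7.72% and 5.98%. The intervals of carrying and matched cells overlapped for both lists.

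The direction of the cell cycle lists changed with the cells compared. With 1 matched cell per carrying cell in place of 4, S phase genes stood at 0.979 and G2/M genes at 0.947. Among cells with surfactant protein transcripts only they stood at 0.858 and 0.924, and among the 71 cells with at least 2 carried UMIs at 1.27 and 1.49. In the 19 cells with both kinds of transcript 2810417H13Rik stood at 5.07 UMIs per 10000 (3.60 to 6.93), with its 39 UMIs in 6 of these cells, against 1.24 in cells with surfactant protein transcripts only and 1.78 in cells with Scgb1a1 only.

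The other genes past 1.5-fold were of mixed function. Hspa1a, an inducible heat shock protein 70, stood at 1.98 (1.58 to 2.46) with 124 UMIs in carrying and 247 in matched cells, and was found in 20.5% and 16.8% of cells. It stood between 1.63 and 2.41 under each alternative choice of cells or matching that was run. Ptger4, a receptor for prostaglandin E2, stood at 1.61 (1.22 to 2.11) and was found in 23.6% and 15.1% of cells. Acp1, a low molecular weight phosphatase, stood at 1.56 (1.17 to 2.06). A further 4, Vstm2a, Ammecr1l, Htr2c and Myo9b, lay between 1.51 and 1.60 with 57 to 86 UMIs in carrying cells. Of the 10 genes, Marco was the 1 in the lists of uptake receptors.

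The genes that were lower were also of mixed function. Apoe, which encodes apolipoprotein E and is high in monocyte-derived and interstitial macrophages, stood at 0.364 (0.234 to 0.545) with 26 UMIs in carrying and 281 in matched cells. It was found in 6.18% of carrying and 11.1% of matched cells, with at most 5 UMIs in a carrying and 27 in a matched cell. It was also uneven within the carrying cells, at 0.117 UMIs per 10000 in cells with surfactant protein transcripts only and 0.412 in cells with Scgb1a1 only. Cd83, a marker of activated antigen-presenting cells, stood at 0.535 (0.360 to 0.772) and was found in 10.8% and 18.3% of cells. S100a6, a calcium-binding protein, stood at 0.536 (0.383 to 0.733), but at 1.24 (0.784 to 1.92) when carrying cells were taken as those with at least 2 UMIs. It had 0.100 UMIs per 10000 in cells with surfactant protein transcripts only and 0.953 in cells with Scgb1a1 only. Crip1, a LIM domain protein just outside the threshold, stood at 0.667 (0.593 to 0.748) with 343 and 2026 UMIs. Crip1 was found in similar shares of cells, 47.5% and 47.1%. Cbx1, Rpf1, Appbp2 and Arid4a lay between 0.550 and 0.653 with 29 to 36 UMIs in carrying cells.

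MHC class II genes, which present antigen, were lower in sum at 0.774 (0.727 to 0.824), with 0 of the 6 tested genes above 1. The typical cell differed little, with a median of 5.48 UMIs of the list per 10000 in carrying and 5.47 in matched cells. The list was found in 81.1% and 83.4% of cells. Cd74, the invariant chain, stood at 0.755 (0.685 to 0.831) and was found in 32.8% of carrying and 38.0% of matched cells. A matched cell held up to 351 UMIs of Cd74 and a carrying cell up to 46. H2-Ab1 stood at 0.649 and H2-Eb1 at 0.592, yet both were found in similar shares of cells, H2-Ab1 in 22.4% and 21.8% and H2-Eb1 in 12.0% and 10.8% of cells. The direction of both turned with the cells compared, to 1.17 (0.813 to 1.64) for H2-Ab1 in carrying cells with at least 2 UMIs and to 1.01 (0.708 to 1.42) for H2-Eb1 without the deepest 5% of cells. A matched cell held up to 140 UMIs of H2-Ab1 and a carrying cell up to 10. The same held for Cxcl1, a neutrophil chemokine, which stood at 0.591 in sum but was found in 14.3% of carrying and 10.8% of matched cells, with up to 63 UMIs in a matched cell, and whose mean log value was higher in carrying cells by 0.011. Il6 stood at 0.639, or 1.10 when matched within classes of Marco UMIs, and was found in 8.88% and 7.92% of cells. The lower sums of H2-Ab1, H2-Eb1, Cxcl1 and Il6 were thus not lower shares of cells.

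Markers of epithelial cells outside the rule were then counted in the carrying cells. Other club and secretory genes had 32 UMIs in carrying and 24 in matched cells, a ratio of 5.25 (3.00 to 9.32), and were found in 8.49% (5.40 to 12.6%) and 2.03% (1.26 to 3.08%) of cells. Bpifa1, a secreted airway host defence protein, had 11 UMIs in 6 carrying cells and 2 UMIs in 2 matched cells, a ratio of 21.7 (4.73 to 201). Reg3g, a secreted antimicrobial lectin, had 5 UMIs in 4 carrying cells and 1 UMI in 1 matched cell. Scgb3a2, a further secretoglobin, was found in 4 carrying cells and in 0 matched cells, which allows a share of up to 0.290% there, and Cyp2f2, a club cell cytochrome P450, in 2 and 0. Hp and Retnla, which macrophages can also express, had 3 UMIs each in carrying cells and 8 and 7 in matched cells. Their ratios were 1.48 (0.252 to 6.15) and 1.69 (0.282 to 7.40), with intervals that span 1. Cbr2, also of this list, had 0 UMIs in carrying and 2 in matched cells. The share of cells with these genes was 14.9% among cells with Scgb1a1 only and 4.79% among cells with surfactant protein transcripts only.

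As a list, other type 2 cell genes stood at 0.961 (0.837 to 1.10), with 264 UMIs in carrying and 1082 in matched cells, and were found in 60.6% and 59.4% of cells. Most of these UMIs came from Lyz1, a lysozyme at 0.932 with 129 and 545 UMIs, and Dram1, with 54 and 224. The list sum thus rests on genes found widely in these AMs and says little of the sparse ones. Abca3, the surfactant lipid transporter, stood at 0.854 with 18 and 83 UMIs, and Napsa, an aspartic protease, at 1.15 with 38 and 130. The sparse genes had too few UMIs to place on either side of 1. Slc34a2, a phosphate transporter, had 2 UMIs in carrying and 2 in matched cells, a ratio of 3.94 (0.286 to 54.3). Cxcl15, a lung chemokine, had 2 and 3, a ratio of 2.63 (0.219 to 22.9), and Chil1, a chitinase-like protein, 3 and 4, a ratio of 2.95 (0.433 to 17.5). Each of these intervals spans 1. Etv5, a transcription factor, stood at 1.97 (0.319 to 9.22) with 3 and 6 UMIs, and Hc, complement component C5, at 1.97 (0.0334 to 37.8) with 1 and 2. Lower ratios were found for Rab27a, a GTPase of secretory vesicles, with 4 and 35 UMIs, for Lpcat1, an enzyme of surfactant lipid synthesis, with 1 and 7, and for Lamp3, a lamellar body protein, with 0 and 6.

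Lists of the remaining cell types lay near or below 1 or had intervals that reached it. Alveolar type 1 genes stood at 1.03 (0.818 to 1.28), ciliated cell genes at 1.01 (0.870 to 1.16), pan-epithelial genes at 0.977 (0.891 to 1.07) and endothelial genes at 1.00 (0.626 to 1.56). Of the fibroblast list, Gsn was the gene in the table, and it stood at 1.22 (0.918 to 1.59). Of the lists of blood cells, B and plasma cell genes stood at 0.760 (0.359 to 1.46), T and NK cell genes at 0.594 (0.284 to 1.13), neutrophil genes at 0.739 (0.518 to 1.03), monocyte and interstitial macrophage genes at 0.841 (0.769 to 0.918) and dendritic cell genes at 1.05 (0.870 to 1.249). Of the erythroid list, 0 genes were in the table. Several of these sums rest on genes found in many matched cells and say little of the sparse ones. Of the 2387 matched UMIs of the pan-epithelial list, Epcam had 1241 and Krt19 1007. Of the 935 of the ciliated list, Tppp3 had 610 and Tubb4b 314. Cd14 had 2341 of the 2826 of the monocyte and interstitial macrophage list, and Cd24a 549 of the 588 of the dendritic list.

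The cells outside the rule allowed the Marco comparison to be repeated with other carried transcripts, chosen after the values above were seen. Of the 1796 other cells, 29 held at least 1 UMI of the whole list of other club and secretory genes, and in these Marco stood at 1.01 (0.694 to 1.45) times the level of depth-matched cells and was found in 48.3% against 52.6% of cells. The list includes Hp and Retnla. A narrower choice left out Hp and Retnla, and also Cbr2, another gene of the list, and gave another value. Of the same 1796 cells, 9 held at least 1 UMI of the airway secretory genes Scgb3a2, Scgb3a1, Cyp2f2, Bpifa1, Bpifb1 and Reg3g. Marco was found in all 9 of them, with 25 UMIs or 5.72 per 10000, and in 58.3% of 36 depth-matched cells with neither these nor the 5 genes, at 2.29 per 10000, with an interval of the ratio from 1.45 to 4.22. For transcripts of blood or vessel cells, Marco stood at 0.786 (0.574 to 1.06) in 57 cells with Jchain, the joining chain of secreted antibodies. It stood at 1.09 (0.935 to 1.27) in 180 cells with S100a8, a neutrophil protein, and at 0.911 (0.752 to 1.10) in 139 cells with endothelial genes. In 41 cells with T and NK cell genes Marco stood at 0.568 (0.362 to 0.860), with 26 Marco UMIs, and this interval lay below 1. Marco stood at 0.859 (0.642 to 1.13) in 62 cells with B and plasma cell genes. It stood at 1.06 (0.925 to 1.22) in 234 cells with neutrophil genes and at 1.03 (0.906 to 1.17) in 296 cells with fibroblast genes. The value for the 9 cells thus rests on 25 UMIs and on a choice of genes made after values were seen, while the whole list gave 1.01. No conclusion is drawn from these 9 cells. The difference between kinds of transcript was not tested in further animals.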

How the data were processed

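Single-cell RNA-seq values of AMs from 1 mouse and 1 library were analysed. The authors aligned reads to mm10 and counted UMIs with Cell Ranger 2.1, removed ribosomal protein and some other genes, and the values deposited by the authors are natural logs of 1 plus UMIs per 10000 UMIs of the cell (LogNormalize of Seurat). Their methods exclude cells over 5% mitochondrial content, yet 384 of the 2055 cells were over 5% by the genes in the table. The deposited scaled values were not used. Exponentials less 1 were whole multiples of a step in each cell within 1e-06 for 100% of values, which gave UMIs. Doublets were treated by the limit of 2500 genes in the authors' methods, and no doublet caller was run.

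Levels were summed UMIs per 10000, with exact (Clopper-Pearson and Poisson) 95% intervals. Members and lists were chosen with earlier results of these data known. Genes named are the 5 genes, in each list the 3 with most UMIs and those past 1.5-fold, and outside lists the 12 highest and 8 lowest ratios without a cell over 20% of UMIs. Low-count markers of other cell types and further members of the function lists were named after their values were seen, and 1 gene that the rule names is not reported here. Thinning to 1500 UMIs left out 10 of 259 members and 40 of 1036 matched cells, and the expected share was computed without random draws. The steps were tested on simulated cells. Positions came from GENCODE M21 of GRCm38. Python 3.11.15, numpy 2.4.6, scipy 1.17.1 and pandas 2.3.3 were used. Alternatives covered the rule, matching, minimum of UMIs, fold, mitochondrial content, depth and the log scale.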

Additional observations from a re-analysis of the deposited data

How the results depend on the processing

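The share of carrying cells, 12.6% by the rule, was 3.45% with at least 2 UMIs, 6.14% and 4.50% at 1500 and 1000 UMIs per cell, 8.03% without Scgb1a1 and 7.15% without Sftpc. The 10 genes higher and 11 lower, of 3425 tested, became 19 and 47 of 4301 without matching and 2 and 5 of 1620 with 1 matched cell; 208 and 287 of 7055 with a minimum of 50 UMIs, 2 and 1 of 1585 with 500 UMIs, 1445 and 1988 of 11861 with none, and 171 and 156 at a threshold of 0.32 (log2). Higher genes numbered 4 of 2127 with surfactant protein members and 4 of 1493 with Scgb1a1 members; lower genes 23 of 2892 with at most 5% mitochondrial UMIs and 18 of 3000 without the deepest 5% of cells; matching within Marco classes gave 5 and 4 of 1607.

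The Marco ratio was above 1 under each alternative: 2.78 with 1 matched cell, 3.46 at 2 or more UMIs (83.1% of cells), 2.54 with surfactant protein members, 1.87 without the 5% of cells highest in Marco, and 1.17 within Marco classes, where matching removes it by construction. The scavenger list was 1.01 within Marco classes and 0.988 without Marco. Fc receptor genes were 0.912 in surfactant protein and 1.00 in Scgb1a1 members. Engulfment genes were 1.01 in Scgb1a1 members, and their mean log value differed by 0.0011. Club genes were found in 4.79% of surfactant protein and 14.9% of Scgb1a1 members. S phase genes were 0.979 with 1 matched cell, 1.27 at 2 or more UMIs, 0.858 in surfactant protein members and 1.04 without the 5% of cells highest in them. G2/M genes were 1.15 without matching, 0.947 with 1 matched cell, 1.49 at 2 or more UMIs (97.2% of cells), 0.924 in surfactant protein and 0.836 in Scgb1a1 members, 1.11 at most 5% mitochondrial, 1.12 without the deepest cells and 1.21 within Marco classes. Reversed values were H2-Ab1 at 1.17 and S100a6 at 1.24 with 2 or more UMIs, H2-Eb1 at 1.01 without the deepest cells, Il6 at 1.10 within Marco classes, and mean log differences of 0.00032 for H2-Ab1 and 0.011 for Cxcl1; the cause was not tested. Marco classes and the lists without Marco or the highest cells were chosen after seeing the data. No paired analysis was possible because the series holds 1 library here. A count of 0 allows a share of up to 0.0915% of the UMIs of a cell of median depth.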
